A study of Mus musculus with 20 samples.

Results

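The MHC class I presentation genes examined here are B2m, H2-K1, H2-D1, Tap1, Tap2, Tapbp, Nlrc5, Psmb8, Psmb9 and Psmb10, and they were taken by symbol from the count tables of both tissues. All 10 of 10 symbols were listed in each table, among 16357 genes tested in spleen and peripheral lymph nodes (pLNs) and 16784 in mesenteric lymph nodes (mLNs), and all 10 passed the filter of at least 1 count in total. To ask how regulatory T (Treg) cells change when they lose Tet2 and Tet3, which encode enzymes that oxidize 5-methylcytosine in DNA, RNA was sequenced from CD4+YFP+ Treg cells and from CD4+YFP- (CD4+Foxp3-) T cells of WT and DKO mice. All mice were C57BL/6 animals aged 14 weeks and carried Foxp3 Cre, a YFP-Cre fusion driven by the endogenous Foxp3 gene, and DKO mice (Tet2/3 fl/fl Foxp3 Cre) carried floxed alleles of both Tet genes in addition. Recombination was therefore directed to Foxp3-expressing cells, while CD4+Foxp3- cells of DKO mice come from the same animals and would include any cell that has lost Foxp3. Each of the 4 groups had 2 biological replicates from pooled spleen and pLNs, the DKO mice being littermates, and 3 from mLNs. The study's text describes greater enlargement of the spleen in a single mouse of the DKO littermate pair, and the labels do not say which replicate it is.

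MHC class I molecules display short peptides from proteins made inside the cell to CD8 T cells. The peptides are cut by the proteasome, in which the immunoproteasome subunits replace constitutive ones when interferon-gamma is present, are pumped into the endoplasmic reticulum by the TAP transporter, and are loaded onto a heavy chain paired with the light chain B2m with the help of tapasin. Nlrc5 is a transactivator that binds no DNA by itself and works through factors bound at the promoters of these genes, and nearly all T cells carry class I molecules at high density.

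The members lay on 3 chromosomes of the mouse genome NCBIM37 (mm9), with gene models from GENCODE M1. Most are in the MHC region of chromosome 17, which holds Tapbp (chr17:34052844-34066235), H2-K1 (chr17:34132962-34137278), Psmb9, Tap1, Psmb8 and Tap2 side by side between 34318932 and 34353266, and H2-D1 (chr17:35399675-35404444). B2m is on chromosome 2 (chr2:121973422-121978819), and Nlrc5, listed there as a lincRNA, and Psmb10 are on chromosome 8. Tap1 and Psmb9 run in opposite directions and their models overlap, but reads were counted by strand.

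Upstream sequences are shown for B2m and H2-K1 because these were the members that fell by at least 1.5-fold with an adjusted p under the threshold. They come from the RefSeq promoter table, which matched 8 of the 10 members, and were placed by exact match on NCBIM37 just before the gene start, at chr2:121973173-121973421 on the plus strand for B2m and at chr17:34137293-34137542 on the minus strand for H2-K1. Capitals mark matches on either strand to letters chosen after the sequences were seen, namely an interferon response core (AANNGAAA), a kappa B motif (GGGA and CC with any 4 bases between), a CRE-type motif (TGACG) and an inverted CCAAT box (ATTGG).
B2m: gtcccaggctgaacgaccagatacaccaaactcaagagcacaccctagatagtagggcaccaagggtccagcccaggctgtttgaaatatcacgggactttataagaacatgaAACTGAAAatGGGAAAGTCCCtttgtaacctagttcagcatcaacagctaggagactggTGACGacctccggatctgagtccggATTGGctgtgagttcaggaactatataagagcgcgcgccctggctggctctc
H2-K1: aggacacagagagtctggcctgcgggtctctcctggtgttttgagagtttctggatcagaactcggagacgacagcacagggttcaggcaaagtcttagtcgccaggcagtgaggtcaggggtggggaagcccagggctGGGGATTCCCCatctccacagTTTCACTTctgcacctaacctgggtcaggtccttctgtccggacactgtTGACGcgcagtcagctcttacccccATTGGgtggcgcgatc
Both stretches held all 4 motifs, with the CRE-type motif and the inverted CCAAT box nearest the start. In B2m the interferon response core stood on the coding strand upstream of the kappa B motif, and in H2-K1 it stood on the opposite strand downstream of it. The kappa B motif is nearly palindromic, so that its matches on the 2 strands overlapped and are counted once here. Over 250 bases before the start, the interferon response core was found in 3 of the 8 members in the table and in 21.3% of all 32851 promoter windows, the kappa B motif in 3 and 17.6%, the CRE-type motif in 5 and 17.8%, and the inverted CCAAT box in 6 and 33.8%. B2m, H2-K1 and H2-D1 held all 4 motifs, Tap1 and Psmb9 the CRE-type motif and the inverted CCAAT box, Tapbp the inverted CCAAT box, and Psmb8 and Psmb10 had no match. B2m and H2-K1 are among the 8, so their matches were built in by the choice of letters. H2-K1 was counted if any of its windows matched, whereas the shares are per window. No enrichment can be read from these counts. These are matches of letters and no evidence of binding.

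Libraries held between 13525932 and 15253141 counted reads in spleen and pLNs and between 9998478 and 15449158 in mLNs, and the members took 0.873% to 1.497% of the reads of a library in the former and 0.695% to 1.14% in the latter. Levels are given as CPM (reads of a gene scaled to library size) after TMM normalization unless TPM, which corrects for gene length, is named. No test compares the tables of the tissues with each other. The summed T cell markers were at 3951 to 6929 CPM in all 20 libraries, and the summed Treg markers were at 1480 to 2040 CPM in Treg libraries against 133 to 220 in WT CD4+Foxp3- libraries. By this sum in mLNs every DKO Treg library, at 1512, 1480 and 1679 CPM, was below every WT Treg library, at 1878, 2003 and 2040. Foxp3 alone overlapped there, at 277, 308 and 329 CPM in DKO and 310, 299 and 326 in WT. In Treg cells from spleen and pLNs Foxp3 was higher in DKO, at 419 and 235 against 165 and 153 CPM. CD8 T cell markers were lower in every DKO library than in every WT library of the same cell type and tissue. They summed to 3.90, 2.95 and 3.94 against 20.8, 20.2 and 16.0 CPM in mLN Treg cells and to 9.49, 4.996 and 10.1 against 23.3, 21.5 and 22.7 in mLN CD4+Foxp3- cells. In spleen and pLNs they summed to 6.70 and 9.42 against 19.7 and 17.2 CPM in Treg cells and to 5.09 and 11.3 against 17.8 and 14.8 in CD4+Foxp3- cells. DKO CD4+Foxp3- libraries held more of the Treg markers, 707 and 226 CPM in spleen and pLNs and 177, 348 and 249 in mLNs (replicates in order). Plasma cell markers stood apart in some DKO mice. They summed to 93.2 and 19.3 CPM in DKO Treg cells from spleen and pLNs and to 4.66, 478 and 13.3 in those from mLNs, against at most 8.22 in the WT Treg libraries of either tissue. In DKO CD4+Foxp3- cells they summed to 126 and 26.3 CPM in spleen and pLNs and to 13.5, 546 and 55.3 in mLNs. Myeloid markers were also higher in the DKO Treg libraries, at 33.9 and 12.5 against 3.07 and 4.94 CPM in WT from spleen and pLNs. In mLNs they were at 14.6, 26.8 and 54.7 against 5.18, 2.98 and 2.95 CPM. NK cell markers in DKO Treg libraries were at 248 and 204 against 60.3 and 58.6 CPM in WT from spleen and pLNs. In mLNs these were at 184, 107 and 156 against 19.6, 17.7 and 14.9 CPM. In CD4+Foxp3- cells NK cell markers summed to 79.7, 149 and 111 CPM in DKO against 18.2 to 26.1 in WT mLNs, and to 273 and 252 against 201 and 137 in spleen and pLNs. Myeloid markers summed there to 30.3 and 22.4 CPM against 8.66 and 9.65 in spleen and pLNs, and to 8.43, 27.3 and 11.8 against 7.49 to 9.48 in mLNs. The part of these markers in the levels of the members was not tested. In bulk RNA, fewer cells of a type and less RNA per cell cannot be told apart.

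The members covered a wide range of levels when expressed as TPM. In WT Treg cells from mLNs, B2m stood at 9026 ± 65.0 TPM, H2-K1 at 4344 ± 42.9, H2-D1 at 1011 ± 17.7, Psmb8 at 657 ± 14.7, Tapbp at 405 ± 20.8 and Psmb9 at 305 ± 10.8 (mean ± SD, n = 3). Tap1 at 248 ± 14.4 and Tap2 at 236 ± 10.3 TPM overlapped and were not separated by their spread, while Psmb10 lay below both at 176 ± 6.65 and Nlrc5, the regulator, was by far the lowest at 52.1 ± 0.917. The same order of means held in all 4 groups of mLN cells, but its lower part was not separated in each. In DKO Treg cells Tap2 and Psmb10 were level, at 191 ± 16.7 and 191 ± 13.1 TPM. In WT CD4+Foxp3- cells Tap1 and Tap2 were level, at 211 ± 12.1 and 211 ± 4.56 TPM. In DKO CD4+Foxp3- cells Tap1, Tap2 and Psmb10 overlapped, at 190 ± 46.0, 182 ± 10.4 and 180 ± 19.4 TPM. In spleen and pLNs, B2m, H2-K1, H2-D1 and Psmb8 again led, in that order, and Nlrc5 was again last in each group. The TPM of all 10 members summed to 16504, 16458 and 16414 in WT Treg cells from mLNs, and to 13016, 10124 and 11383 in DKO Treg cells. For CD4+Foxp3- cells of the same nodes the sums were 13566, 13233 and 13154 in WT and 13056, 9794 and 12008 in DKO. Thus the WT Treg libraries held the most of these transcripts and varied least, and every DKO Treg library lay below them. In spleen and pLNs the sums were 17731 and 16811 in WT Treg cells, 13904 and 14808 in DKO Treg cells, 14998 and 13807 in WT CD4+Foxp3- cells and 11033 and 14138 in DKO CD4+Foxp3- cells.

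**Figure D1:**
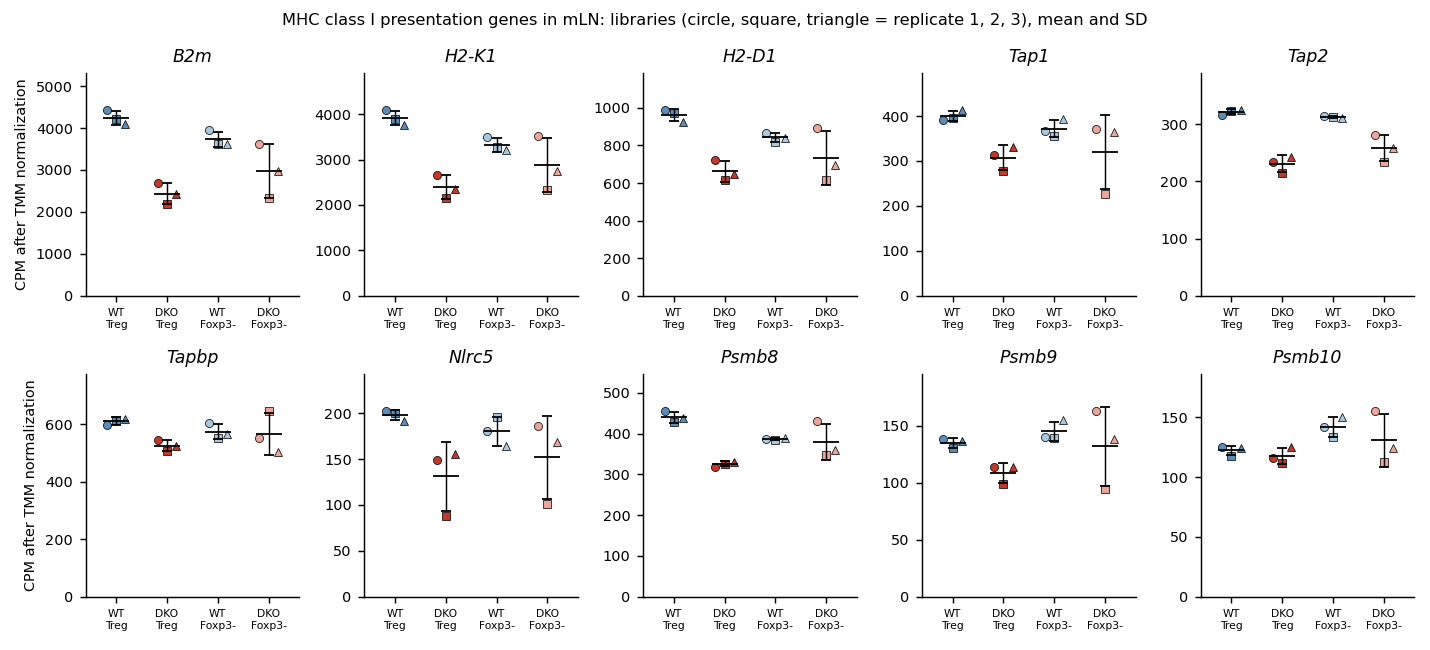
CPM after TMM normalization (vertical axes, from 0) of each member in the 12 mLN libraries by group, with circles, squares and triangles for replicates 1, 2 and 3 and the mean and SD in black. DKO Treg libraries lie below all WT Treg libraries for 9 of 10 members, Psmb10 being the exception, and among DKO CD4+Foxp3- libraries replicate 2 is the lowest for 9 members.

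In Treg cells from mLNs, the light chain gene B2m and the heavy chain genes H2-K1 and H2-D1 were lower in DKO than in WT. Of the 10 members, 2 (B2m and H2-K1) were lower by 1.5-fold or more, with an adjusted p no higher than 0.05 in edgeR's quasi-likelihood test with Benjamini-Hochberg adjustment (the rule for a gene named as called), beside 3.43% of all genes tested. Without the fold change minimum 5 members were lower (B2m, H2-K1, H2-D1, Tap2 and Psmb8), beside 8.29% of all genes, and none was higher by either rule. All 10 log2 fold changes were below 0, with a median of -0.46 beside 0.0045 over all genes tested, and for 9 members every DKO library lay below every WT library, which was so for 19.2% of all genes.

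B2m, the light chain shared by all class I molecules, was at 4424, 4213 and 4103 CPM in WT Treg cells from mLNs and at 2683, 2184 and 2434 in DKO Treg cells. The groups were well apart, and B2m fell by 0.80 ± 0.13 on the log2 scale (SE, adjusted p = 0.0013), to 57.3% of the WT mean. H2-K1, a classical heavy chain that presents peptides, was at 4089, 3900 and 3773 CPM in WT and at 2672, 2161 and 2352 in DKO, again without overlap, and fell by 0.71 ± 0.13 (adjusted p = 0.0022). H2-D1, the other classical heavy chain measured, was at 987, 975 and 924 CPM in WT and at 721, 614 and 650 in DKO, and fell by 0.54 ± 0.11 (adjusted p = 0.0060), which was under 1.5-fold. Heavy chain genes share long stretches of sequence and reads were kept at 1 place only, so that the split between H2-K1, H2-D1 and their relatives is uncertain. When the 18 class I heavy chain rows were summed into 1 row, that row fell by 0.63 (adjusted p = 0.0041). Without DKO Treg replicate 1, H2-D1 fell by 0.61 (adjusted p = 0.0080) and 3 members in all passed both limits, beside 3.05% of all genes. Without DKO Treg replicate 2, the library with the most plasma cell markers, B2m fell by 0.73 (adjusted p = 0.0063) and H2-K1 by 0.64 (adjusted p = 0.011).

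Both genes of the peptide transporter had lower values, and Tap2 passed the test. Tap2 was at 317, 324 and 325 CPM in WT Treg cells from mLNs and at 235, 214 and 243 in DKO Treg cells, and fell by 0.48 ± 0.08 (adjusted p = 0.0014). Tap1, its partner in the transporter, was at 391, 396 and 413 CPM in WT and at 313, 277 and 332 in DKO. The groups did not overlap, yet the log2 fold change of -0.38 ± 0.15 had an adjusted p of 0.090, which was 0.0074 when only these 2 groups were fitted and 0.047 with a replicate block. The difference between Tap1 and Tap2 was not tested. Tapbp, which encodes tapasin, the chaperone that bridges TAP and the empty class I molecule, stood at 596, 616 and 619 CPM in WT and at 546, 507 and 523 in DKO, a log2 fold change of -0.22 ± 0.09 (adjusted p = 0.10, or 0.041 when only these 2 groups were fitted), and of -0.04 with limma on TPM.

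Nlrc5 was at 202, 201 and 192 CPM in WT Treg cells from mLNs and at 150, 88.3 and 156 in DKO Treg cells. All DKO libraries were below the WT libraries, but replicate 2 lay far under the other two, and the log2 fold change of -0.60 ± 0.22 had an adjusted p of 0.071. The 95% interval ran from -1.06 to -0.13. Without DKO replicate 2 the value was -0.38 (adjusted p = 0.23). With 2 groups only, DESeq2's Wald test and a replicate block Nlrc5 was called, at -0.59 (adjusted p = 0.032), -0.59 (adjusted p = 0.041) and -0.63 (adjusted p = 0.045).

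Of the immunoproteasome subunits, 1 of 3 was lower at an adjusted p no higher than 0.05, as were 8.29% of all genes. Psmb8, which replaces Psmb5 in the catalytic core, was at 455, 428 and 438 CPM in WT Treg cells from mLNs and at 319, 326 and 331 in DKO Treg cells, a tight pair of groups, and fell by 0.44 ± 0.08 (adjusted p = 0.0031). Psmb9, which replaces Psmb6, was at 139, 130 and 136 CPM in WT and at 113, 98.3 and 113 in DKO, a log2 fold change of -0.32 ± 0.15 (adjusted p = 0.16, or 0.021 when only these 2 groups were fitted). The difference between the subunits was not tested. Psmb10, which replaces Psmb7, was at 125, 118 and 124 CPM in WT and at 116, 112 and 125 in DKO. These groups overlapped, and the log2 fold change was -0.06 with a 95% interval of -0.28 to 0.17.

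**Figure D2:**
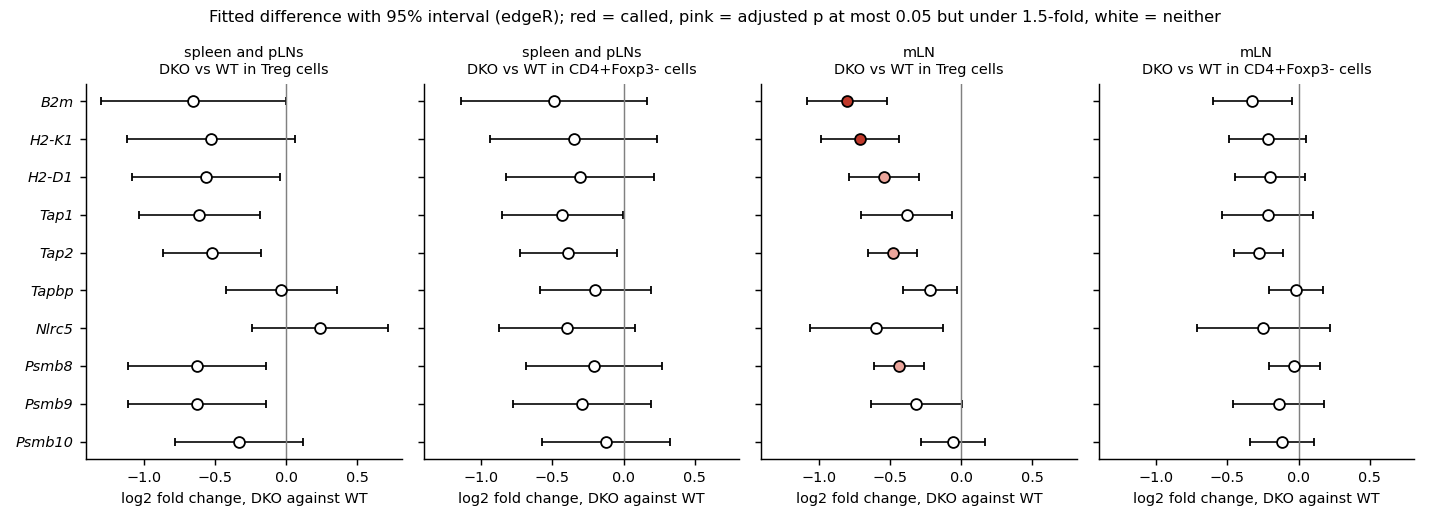
Fitted log2 fold change of DKO against WT (horizontal axis) with its 95% interval for each member in Treg and CD4+Foxp3- cells of both tissues, red where called, pink where the adjusted p was at most 0.05 but the change was under 1.5-fold, and white otherwise. Only the mLN Treg panel has filled points (B2m and H2-K1 in red, H2-D1, Tap2 and Psmb8 in pink), and the intervals are widest in spleen and pLNs.

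In Treg cells from spleen and pLNs, 9 of 10 members had log2 fold changes below 0, but none passed edgeR's test. No member was called by edgeR, by DESeq2's Wald test or by limma on TPM, beside 0.605% of all genes called lower by edgeR, while 5 members and 20.4% of all genes had an unadjusted p under 0.05. For 8 members both DKO libraries lay below both WT libraries, as was so for 26.1% of all genes, and the median log2 fold change of -0.55 stood beside 0.018 over all genes. B2m was at 4821 and 4549 CPM in WT and at 2532 and 3437 in DKO, a log2 fold change of -0.65 ± 0.30 (adjusted p = 0.24). H2-K1 was at 5030.2 and 4942 CPM in WT and at 2856 and 4061 in DKO, and H2-D1 at 2940.4 and 2744 in WT and at 1676 and 2173 in DKO, with log2 fold changes of -0.53 ± 0.27 and -0.56 ± 0.24. The DKO replicates were further apart than the WT replicates in CPM for all 3 genes, but in TPM for H2-K1 only. With limma on TPM these log2 fold changes were smaller, at -0.33 for B2m, -0.22 for H2-K1 and -0.24 for H2-D1.

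Tap2 was at 245 and 250.4 CPM in DKO and at 346 and 365 in WT Treg cells of this tissue, a log2 fold change of -0.52 ± 0.16 (adjusted p = 0.099, or 0.011 with DESeq2 at a change of under 1.5-fold). By TPM its groups were closer, at 205.3 and 164 against 205.4 and 213, and limma gave -0.19. Tap1 was at 573 and 596 CPM in WT and at 327 and 440.0 in DKO, with a log2 fold change of -0.61 ± 0.20 (adjusted p = 0.11). Psmb8 was at 699 and 759 CPM in WT and at 374 and 570.2 in DKO, and Psmb9 at 257 and 263 in WT and at 127 and 210.3 in DKO, with log2 fold changes of -0.63 and -0.62 (adjusted p = 0.14 for each). Tapbp, at 614 and 606 CPM in WT and at 583 and 609 in DKO, was level, and its log2 fold change of -0.03 turned to 0.30 when TPM were fitted with limma. Nlrc5 was the exception, at 81.5 and 74.3 CPM in WT and at 111 and 72.4 in DKO. Replicate 1, the DKO library lowest for the other 9 members, was the highest of the 4 for Nlrc5, and the log2 fold change was 0.24 with a 95% interval of -0.24 to 0.71, or -0.11 without that library. Without DKO Treg replicate 2, 3 members were called, namely Tap1 (-0.84, adjusted p = 0.034), Psmb8 (-0.96, adjusted p = 0.028) and Psmb9 (-1.04, adjusted p = 0.017), beside 3.52% of all genes called lower, with 1 DKO library left that is assumed to vary like the other groups. Without DKO Treg replicate 1 the same genes stood at -0.41, -0.36 and -0.31 and no member was called.

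**Figure D3:**
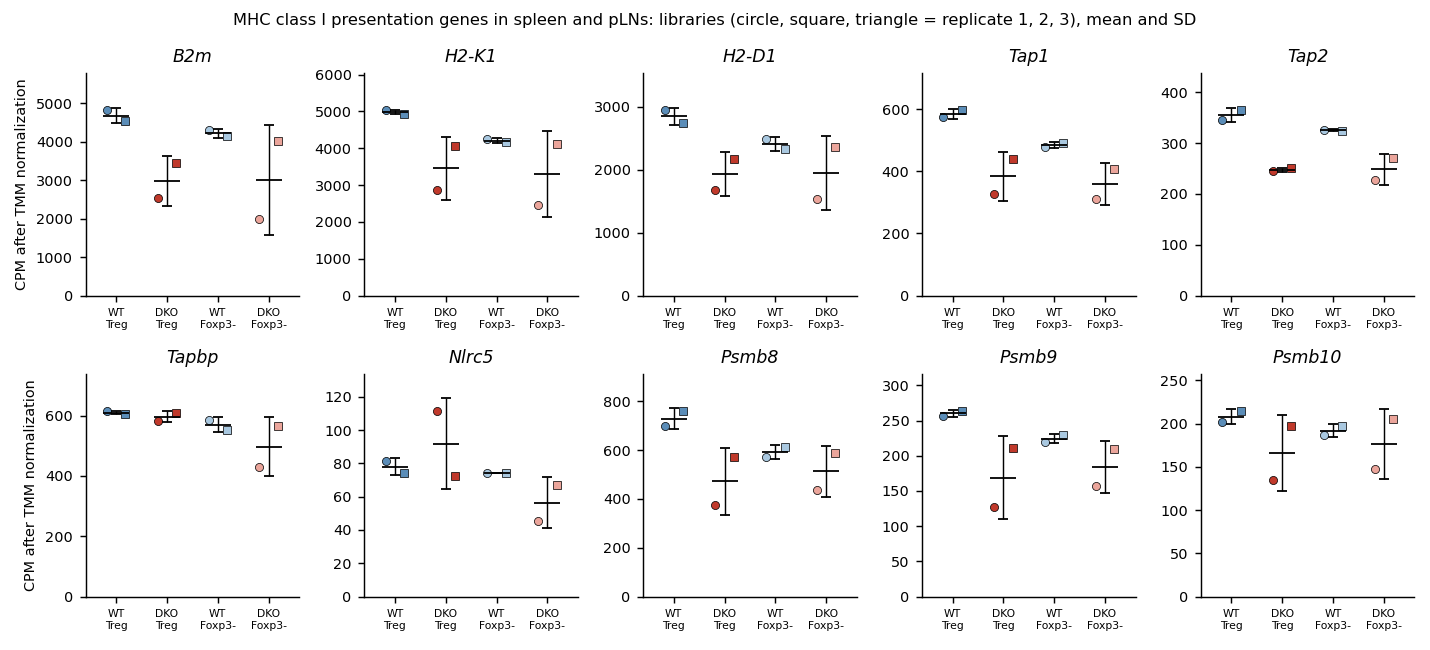
CPM after TMM normalization (vertical axes, from 0) of each member in the 8 libraries from spleen and pLNs by group, with circles for replicate 1, squares for replicate 2 and the mean and SD in black. On this scale DKO replicate 1 lies below DKO replicate 2 for all 10 members in CD4+Foxp3- cells and for 9 in Treg cells, where Nlrc5 is the exception, whereas by TPM it does so for 5 and 7.

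In CD4+Foxp3- cells, all 10 members had log2 fold changes below 0 in both tissues and none was called. In mLNs, no member was called by edgeR, DESeq2 or limma, beside 0.304% of all genes called lower by edgeR, and 2 members (B2m and Tap2) had an unadjusted p under 0.05, as had 18.7% of all genes. These were also the 2 members whose DKO libraries all lay below the WT libraries, beside 9.74% of all genes. B2m was at 3942, 3626 and 3617 CPM in WT and at 3616, 2338 and 2983 in DKO, a log2 fold change of -0.32 ± 0.13 (adjusted p = 0.19). Tap2 was at 314, 313 and 312 CPM in WT and at 281, 234 and 259 in DKO, a log2 fold change of -0.28 ± 0.08 (adjusted p = 0.072, or 0.0093 with DESeq2). H2-K1 was at 3509, 3272 and 3216 CPM in WT and at 3516, 2341 and 2757 in DKO, so that one DKO library stood above all WT libraries and the other two below. Nlrc5 was at 180.4, 196 and 164 CPM in WT and at 186, 101 and 168 in DKO, and again replicate 2 was the low one. The median log2 fold change of the members was -0.21 beside 0 over all genes, and those of Tapbp and Psmb8, at -0.02 and -0.03, turned above 0 with limma on TPM. Without DKO CD4+Foxp3- replicate 1, B2m, H2-K1, H2-D1 and Tap2 had adjusted p between 0.010 and 0.020, with log2 fold changes of -0.48, -0.38, -0.36 and -0.34, beside 3.36% of all genes lower at an adjusted p no higher than 0.05. Without replicate 2 the same genes stood at -0.17, -0.08, -0.08 and -0.20, with adjusted p between 0.26 and 0.87.

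In CD4+Foxp3- cells from spleen and pLNs, no member was called by edgeR, DESeq2 or limma, beside 0.0489% of all genes called lower by edgeR, and 2 members (Tap1 and Tap2) had an unadjusted p under 0.05, as had 12.9% of all genes. Both DKO libraries lay below both WT libraries for 6 members, beside 21.1% of all genes, and the median log2 fold change was -0.33 beside 0 over all genes. The DKO replicates were wide apart. B2m was at 2002 in replicate 1 and at 4020.3 CPM in replicate 2, against 4308 and 4141 in WT, and H2-K1 was at 2471 and 4118 against 4247 and 4158. Replicate 2 thus lay within 5% of the WT mean for both genes, at 95.2% and 98.0%, and replicate 1 at 47.4% and 58.8%. Without replicate 2, 4 members were called (B2m at -1.08, H2-K1 at -0.77, Tap1 at -0.64 and Nlrc5 at -0.70 on the log2 scale), but 7.28% of all genes were then called lower, and the 1 DKO library left is assumed to vary like the other groups. Without replicate 1 no member was called and B2m stood at -0.08.

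In mLNs, the DKO library that was low in Treg cells was also low in CD4+Foxp3- cells. There, DKO replicate 2 was the lowest of the 3 DKO libraries for 9 of 10 members in Treg cells and for 9 of 10 in CD4+Foxp3- cells, and by TPM for 10 and for 9. By CPM, DKO replicate 1 from spleen and pLNs was the lower for 9 and for 10 members, but for 7 and for 5 by TPM, so that there the pattern depended on the scaling. In WT no library was the lowest for more than 6 members by CPM. By TPM, replicate 2 of WT CD4+Foxp3- cells from spleen and pLNs was the lowest for 8. Shares of all genes lowest in each library were not counted, so whether these patterns are particular to the members cannot be told. These same DKO replicates held the most plasma cell marker reads of their group in both cell types, 478 and 546 CPM in mLNs and 93.2 and 126 in spleen and pLNs. Whether this has a part in the levels of the members was not tested.

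**Figure D4:**
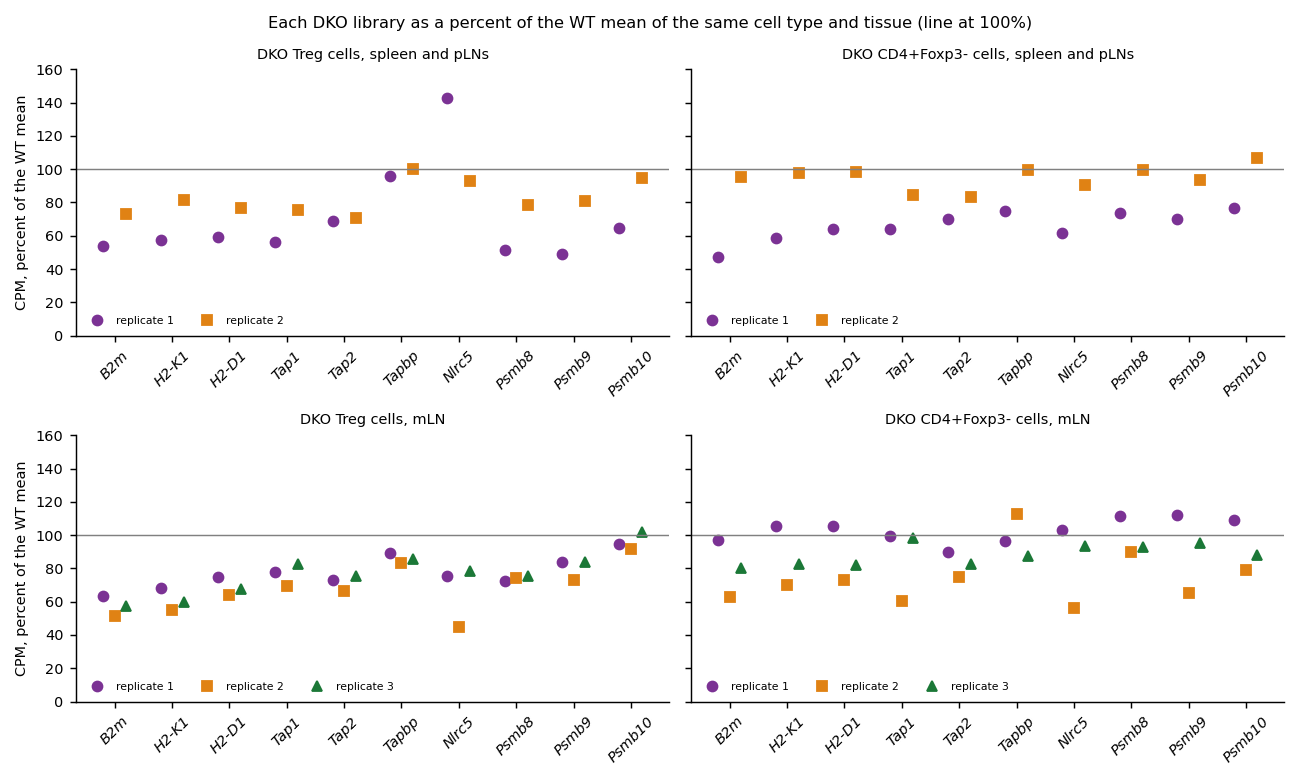
CPM of every DKO library as a percent of the WT mean of the same cell type and tissue (vertical axis, from 0, line at 100%) for the 10 members, with symbol and colour for the replicate. In mLN Treg cells B2m runs from 51.4% to 63.2%, and in mLNs replicate 2 is the lowest for 9 of 10 members in each cell type.

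No member was called between Treg and CD4+Foxp3- cells of the same genotype. In WT mice edgeR called 10.1% of all genes in mLNs and 4.0% (654 genes) in spleen and pLNs in either direction and 0 members in both, with 1 and 0 members at an unadjusted p under 0.05, beside 27.0% and 13.7% of all genes. In DKO mice the shares were 11.2% and 3.77% of all genes and 0 members, with 2 and 1 at an unadjusted p under 0.05, beside 30.4% and 14.2% of all genes, and DESeq2 and limma called no member in any of these comparisons. In WT, log2 differences between Treg and CD4+Foxp3- cells ranged from -0.21 for Psmb10 to 0.23 for H2-K1 in mLNs and from 0.07 to 0.30 in spleen and pLNs. In DKO mLNs all 10 were below 0, from -0.29 for B2m to -0.06 for Tap1. By mean TPM there, only B2m, H2-K1 and Psmb9 were lower in Treg than in CD4+Foxp3- cells. Their TPM were 5860 against 6060, 3006 against 3043 and 278 against 285. The other members were higher, such as Tap1 at 215 ± 23.3 against 190 ± 46.0 TPM (mean ± SD). Limma on TPM moved the median of all genes in this comparison from 0.0093 to 0.13. Nlrc5 in DKO spleen and pLNs had the largest difference, 0.71 ± 0.22 (adjusted p = 0.12), and was called at 1.01 without DKO CD4+Foxp3- replicate 2 and at 0.97 without DKO Treg replicate 2, beside 8.05% and 4.59% of all genes in either direction. It was not called without either replicate 1, at 0.45 without that of CD4+Foxp3- cells and 0.36 without that of Treg cells. In each of these fits 1 DKO library of a cell type is left and is assumed to vary like the other groups.

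The DKO effect was not shown to differ between the cell types. The interaction of genotype and cell type was called for 0.280% of all genes in mLNs and 0.00611% in spleen and pLNs and for 0 members in both by edgeR, with 3 and 0 members at an unadjusted p under 0.05, beside 10.9% and 5.53% of all genes. The 3 were B2m (-0.48 ± 0.18, adjusted p = 0.34), H2-K1 (-0.50 ± 0.18, adjusted p = 0.30) and Psmb8 (-0.41 ± 0.12, adjusted p = 0.18), all more negative in Treg cells. DESeq2 called Psmb8 alone in mLNs (adjusted p = 0.021), beside 2.44% of all genes, and no member in spleen and pLNs, and limma called none. Without DKO CD4+Foxp3- replicate 2, edgeR called all 3, with log2 differences of -0.66, -0.66 and -0.50, beside 2.77% of all genes. In spleen and pLNs Nlrc5 had the largest interaction, 0.63 ± 0.31 (adjusted p = 0.91).

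The immunoproteasome subunits were also set against the constitutive subunits they replace. Within a library, the TPM of Psmb8 over those of Psmb5 were 6.31, 5.85 and 6.73 in WT Treg cells from mLNs and 3.43, 3.38 and 3.23 in DKO Treg cells. The groups did not overlap, and the log2 difference was -0.91 (exact two-sided permutation test, p = 0.10, the smallest that 3 against 3 allows). Psmb5 itself was at 51.3, 52.0 and 46.3 CPM in WT and at 66.1, 68.7 and 73.0 in DKO, and rose by 0.47 on the log2 scale in edgeR's test (adjusted p = 0.0024), while Psmb6 and Psmb7 had log2 fold changes of 0.11 and 0.18 (adjusted p = 0.31 and 0.18). The ratio of Psmb9 to Psmb6 was 1.98 ± 0.0443 in WT and 1.48 ± 0.224 in DKO (n = 3 each, exact permutation p = 0.10), with no overlap. That of Psmb10 to Psmb7 was 0.945 ± 0.102 in WT and 0.802 ± 0.0931 in DKO, which overlapped (exact permutation p = 0.20). In mLN CD4+Foxp3- cells the 3 ratios overlapped between the genotypes, with exact permutation p of 0.40, 0.80 and 0.40, and Psmb8 over Psmb5 was 4.92 ± 0.644 in DKO and 5.15 ± 0.391 in WT (n = 3). In Treg cells from spleen and pLNs, where an exact permutation test of 2 against 2 cannot go below p = 0.33, all 3 ratios were lower in both DKO libraries, with Psmb8 over Psmb5 at 3.42 and 3.90 against 5.30 and 5.25 in WT. In CD4+Foxp3- cells of this tissue Psmb8 over Psmb5 was at 2.99 and 4.53 in DKO and at 4.79 and 5.05 in WT.

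**Figure D5:**
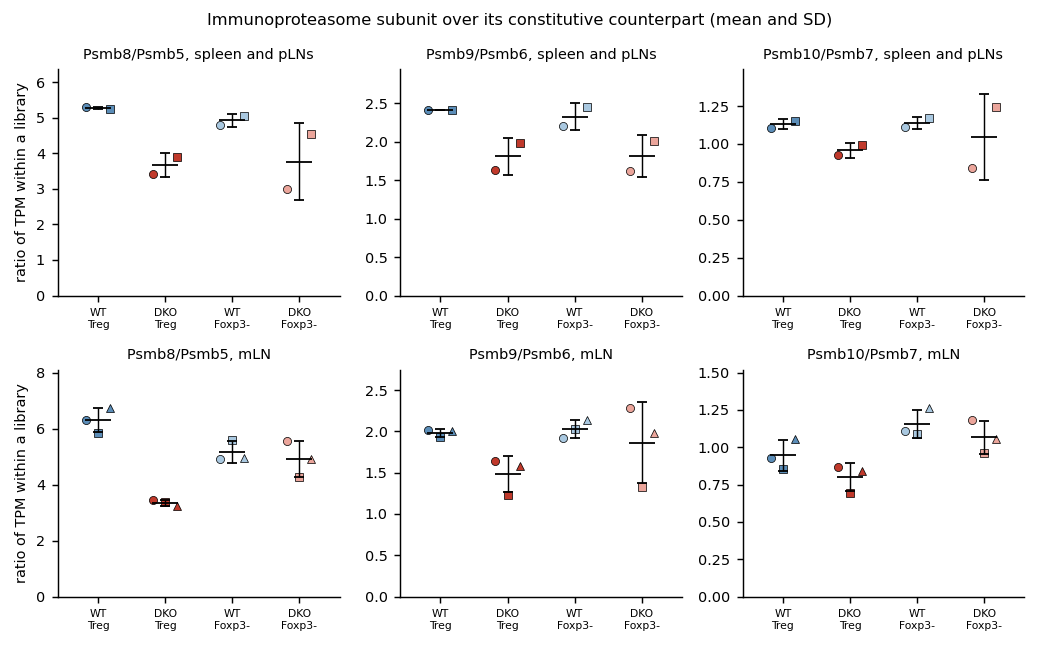
TPM of each immunoproteasome subunit over those of its constitutive counterpart within a library (vertical axes, from 0) by group, with circles, squares and triangles for replicates 1, 2 and 3 and the mean and SD in black. In mLN Treg cells Psmb8 over Psmb5 is 3.35 on average in DKO and 6.30 in WT, with no overlap.

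The other parts of the pathway were counted over whole lists. The other class I heavy chains were mainly H2-Q, H2-T and H2-M genes, Cd1d1 and Mr1, and 16 were tested in each tissue. In mLN Treg cells 4 of 16 were lower at an adjusted p of at most 0.05, among them H2-Q4 (-0.68, adjusted p = 0.014), the only one past 1.5-fold, and none was higher, with a median log2 fold change of -0.45 and 2 of the 16 above 0. Of all genes, 8.29% were lower by the adjusted p alone and 3.43% past both limits. In Treg cells from spleen and pLNs all 16 were below 0 with a median of -0.54, and edgeR called 0, with 8 at an unadjusted p under 0.05, beside 20.4% of all genes. EdgeR also called 0 in CD4+Foxp3- cells, with medians of -0.17 in mLNs and -0.37 in spleen and pLNs and 1 and 2 genes at an unadjusted p under 0.05, beside 18.7% and 12.9% of all genes. The general loading and trimming factors Calr, Canx, Pdia3, Erap1, Tapbpl, Hspa5, Sec61a1 and Sec61b were not called in any DKO comparison, with medians of 0.018 and 0.048 in the Treg cells of mLNs and of spleen and pLNs. At most 1 of these 8 had an unadjusted p under 0.05 in any of the 4 DKO comparisons, beside 12.9% to 32.4% of all genes. Of 16 other proteasome subunits and activators edgeR called 0 in each of them, with at most 2 at an unadjusted p under 0.05, beside the same shares of all genes. Psme1 and Psme2, which form the interferon-inducible activator of the proteasome, had log2 fold changes of -0.22 and 0.09 in mLN Treg cells (adjusted p = 0.19 and 0.63).

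Of the factors that act at class I promoters and in interferon-gamma signalling, 5 of 18 were lower in mLN Treg cells at an adjusted p of at most 0.05, 4 of them past 1.5-fold, and 1 was higher. Of all genes in this comparison, 8.29% were lower by the adjusted p alone, and 3.43% were lower and 8.5% higher past both limits. Those past 1.5-fold included Ifngr2, a chain of the interferon-gamma receptor (-1.20, adjusted p = 0.0023), Irf8 (-1.12, adjusted p = 0.014) and Socs1, a feedback inhibitor (-0.89, adjusted p = 0.013). The gene that rose was Ciita, the class II counterpart of Nlrc5 (2.01, adjusted p = 0.023). Irf1, which activates class I promoters, had a log2 fold change of -0.59 (adjusted p = 0.084), Rfx5, a subunit of the factor through which Nlrc5 acts, -0.19 (adjusted p = 0.12), and Ifng -0.53 (adjusted p = 0.62), at no more than 1.93 CPM in any mLN Treg library. In spleen and pLN Treg cells edgeR called 0 of these 18, with 5 at an unadjusted p under 0.05 beside 20.4% of all genes, and Irf1 had a log2 fold change of -0.64 (adjusted p = 0.083). None was called by edgeR in CD4+Foxp3- cells of either tissue, with 4 in mLNs and 3 in spleen and pLNs at an unadjusted p under 0.05, beside 18.7% and 12.9% of all genes.

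Interferon-stimulated genes were called in both directions in mLN Treg cells, where 17 of 25 were below 0 and the median log2 fold change was -0.46. In mLN Treg cells 4 of 25 fell past both limits, including the guanylate-binding protein gene Gbp3 (-0.97, adjusted p = 0.0030) and the immunity-related GTPase gene Igtp (-0.85, adjusted p = 0.040), and 2 rose, Mx1 (1.14, adjusted p = 0.032) and Rsad2 (0.81, adjusted p = 0.036), both antiviral effectors, beside the same 3.43% and 8.5% of all genes. In spleen and pLN Treg cells 1 of 24 was called, Irgm2 (-1.02, adjusted p = 0.045), beside 0.605% of all genes lower, and in CD4+Foxp3- cells edgeR called 0 in both tissues, with 0 in mLNs and 9 in spleen and pLNs at an unadjusted p under 0.05, beside 18.7% and 12.9% of all genes. Their medians were -0.12 in spleen and pLN Treg cells, and in CD4+Foxp3- cells -0.14 in mLNs and -0.49 in spleen and pLNs, where 21 of 24 were below 0. MHC class II, which presents peptides from outside the cell to CD4 T cells, had genes called higher in 3 of the 4 DKO comparisons. In mLN Treg cells 5 of 8 class II genes rose, with H2-Ab1 at 5.05 (adjusted p = 0.00030) and H2-Aa at 4.23 (adjusted p = 6.3e-05), while H2-DMa fell by 1.47 (adjusted p = 0.00040). In spleen and pLNs 4 of 8 rose in Treg cells and 4 of 8 in CD4+Foxp3- cells, H2-Aa by 2.88 and 1.37 on the log2 scale, beside 1.14% and 0.770% of all genes called higher. In mLN CD4+Foxp3- cells none rose and H2-DMa fell by 0.83 (adjusted p = 0.032). B cell markers, whose cells carry class II, summed to 10.2, 27.2 and 9.06 CPM in DKO Treg cells from mLNs and to 30.9, 35.6 and 27.2 in WT, so that they were not higher in DKO there. In CD4+Foxp3- cells from spleen and pLNs they were higher in DKO, at 10.99 and 6.45 against 3.80 and 3.78 CPM. In Treg cells of that tissue they were lower in DKO, at 15.9 and 11.4 against 30.2 and 28.3 CPM. In mLN CD4+Foxp3- cells they were at 2.39, 20.9 and 6.01 CPM in DKO and 3.15, 2.77 and 2.59 in WT. Dendritic cell markers, of another class II cell type, were also summed. For mLN Treg cells they were at 9.78, 8.41 and 3.78 CPM in DKO and 2.71, 2.98 and 3.25 in WT. For CD4+Foxp3- cells from spleen and pLNs they were at 13.7 and 10.9 CPM in DKO and 3.80 and 3.62 in WT. For Treg cells of that tissue they were at 8.41 and 4.64 CPM in DKO and 4.46 and 3.48 in WT. For mLN CD4+Foxp3- cells they were at 2.31, 2.67 and 2.21 CPM in DKO and 2.81, 2.70 and 3.29 in WT. The part of these cells and of the myeloid markers given above in the class II values was not tested.

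The genes whose pattern was most like that of Nlrc5 included a class I heavy chain gene and the interferon-stimulated gene Gbp4. Over the 12 mLN libraries, among 8409 genes averaging 10 CPM or more, the highest Pearson correlations of log2 CPM with Nlrc5 included those of H2-Q4 (0.98), Jmjd1c, Gbp4 and Cd226 (0.96 each). The libraries include both genotypes and cell types and share the low DKO replicates, so that these values describe one pattern across 12 libraries and are given without a test. The members ranked lower. Tap1 (0.89) was 112th, B2m (0.87) 140th, H2-K1 (0.86) 174th, Tap2 (0.85) 212th, H2-D1 (0.85) 218th and Psmb9 (0.83) 276th of these genes, followed by Psmb8 (0.73), Psmb10 (0.53) and Tapbp (0.21). Over the 8 libraries of spleen and pLNs the order was different. Jmjd1c was at 0.75, Gbp4 at 0.68 and Cd226 at 0.052 there, and H2-Q4 had no value. Tapbp had the highest value of the members, 0.76, B2m was at 0.30 and the immunoproteasome genes were between -0.11 and -0.07.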

How the data were processed

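Libraries were TruSeq stranded RNA-seq from sorted cells, 8 from spleen and pLNs and 12 from mLNs. Per the submitters' processing notes and the study's methods, the authors mapped reads to mm9 with TopHat2 2.1.1, keeping 1 place per read, and counted them per gene and strand with featureCounts of Subread 1.4.3-p1. The deposited values used here are these raw counts, and the deposited TPM, computed by the authors, served for ratios within a library and for levels between genes. Counts were tested with edgeR 4.0.16 in R 4.3.3 (TMM, quasi-likelihood, the 4 groups of a tissue in 1 fit, genes with at least 1 count in total), with Benjamini-Hochberg adjustment over all genes. A gene was called when its adjusted p was no higher than 0.05 and its change reached 1.5-fold, the interaction at the adjusted p alone. DESeq2 1.42.0 and limma 3.58.1 on log2(TPM + 1) were alternatives, as were DESeq2 size factors, a robust prior, 2 groups only, filterByExpr, a replicate block, summed heavy chain rows and leaving out each library. Steps were tested on simulated data. Sequences were handled in Python 3.11.15.

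The members and lists were chosen with earlier results of these data known. Named were all members, called genes of the pathway lists by size of change, a fixed few others, and the 5 genes most like Nlrc5, except 1 gene that is not reported here. Same-numbered Treg and CD4+Foxp3- libraries of a genotype deviated together in mLNs (correlations of 0.14 to 0.54, against -0.44 to 0.18 for different numbers), and same-numbered WT and DKO libraries did not in all pairs (-0.05 to 0.23).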

Additional observations from a re-analysis of the deposited data

How the results depend on the processing

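With 2 or 3 libraries a group and DKO replicates that differed widely, single libraries decided several calls. Leaving out each library in turn, the number of members called ran from 0 to 3 in Treg cells and from 0 to 4 in CD4+Foxp3- cells from spleen and pLNs (DKO against WT), from 0 to 1 between the cell types of DKO spleen and pLNs, and from 0 to 3 for the interaction in mLNs. In CD4+Foxp3- cells from mLNs log2 fold changes ran from -0.111 to 0.0616 for Tapbp, from -0.127 to 0.0410 for Psmb8 and from -0.316 to 0.0634 for Psmb9, and the log2 change of the TPM ratio from -0.166 to 0.0237 for Psmb8 to Psmb5 and from -0.320 to 0.0695 for Psmb9 to Psmb6. In spleen and pLNs Psmb10 ran from -0.380 to 0.0934 and its ratio to Psmb7 from -0.44 to 0.12 in CD4+Foxp3- cells, and Nlrc5 from -0.11 to 0.51 in Treg cells.

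For mLN Treg cells 3 members were called with DESeq2 and with 2 groups only (Nlrc5 added), beside 3.73% and 4.53% of all genes called lower, 1 member (B2m) with limma on TPM, beside 2.03%, and 5 without a fold change minimum, and DESeq2 called 1 member in the mLN interaction, beside 2.44%. With limma on TPM, which moved the median of all genes in spleen and pLN Treg cells from 0.02 to 0.16, directions turned for Tapbp (0.0418) and Psmb8 (0.0309) in mLN CD4+Foxp3- cells, Psmb10 (0.12) in mLN Treg cells, Tapbp (0.0320), Psmb8 (0.0201) and Psmb10 (0.10) in CD4+Foxp3- cells and Tapbp (0.30) in Treg cells from spleen and pLNs. These turns are of DKO against WT, and their cause was not tested. Further member results, for the comparisons of the cell types and the interaction, also turned in places. On leaving out a library 32 turned and 320 did not, and with the other alternatives 18 turned and 461 did not. With the replicate block, 3 members were called in mLN Treg cells, adding Nlrc5 (-0.63, adjusted p = 0.045), beside 3.77% of all genes called lower, and 0 in each other comparison, as without it. The block within genotype changed no call of a member.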
